A study of Mus musculus with 6 samples.

Results

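A set of 10 genes that mark the fetal liver, its bile duct progenitors or the liver tumours that re-express them were followed through the RNA-seq libraries of Hepa1-6 cells and were found by gene symbol among the 25078 genes of the count and RPKM tables. They are Gpc3, Spp1, Sox9, Sox4, Prom1, Cd44, Cd24a, Lin28b, Igf2bp1 and Igf2bp3. Hepa1-6 is an established mouse hepatoma line whose labels trace it to the C57/L strain. The study asked how loss of midnolin, the product of Midn, changes these liver cancer cells. The 6 libraries comprised 1 of parental cells without treatment (wt), 2 of cells that carried a scramble vector (scr 25-2 and scr 50-1) and 3 of cells that carried a midnolin shRNA vector (knockdown 25-3, 50-2 and 50-5). Both vectors were delivered by lentivirus, the cells were kept in puromycin, and colonies grown from single cells were isolated, so that a transduced library may stand for 1 clone. The labels do not say which clone a library came from, whether the libraries of a group were separate clones, or what the numbers 25 and 50 mean. The p-values below therefore measure the spread between these libraries, and the wt library, alone in its group, is given by its values only. Values are always listed in the order scr 25-2, scr 50-1 (the scr pair) and knockdown 25-3, 50-2, 50-5 (the knockdown set).

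Oncofetal genes are switched on in the embryonic liver, silenced in adult hepatocytes and often expressed again in hepatocellular carcinoma, where glypican-3 is a diagnostic marker. Liver progenitor and bile duct cells are marked by a different set, with the transcription factor SOX9, osteopontin and surface glycoproteins such as CD44, CD24 and prominin-1. LIN28B blocks the maturation of the let-7 microRNAs, and let-7 in turn represses LIN28B and the IGF2BP messenger RNA-binding proteins, so that these genes are often described as 1 fetal circuit.

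The total of reads assigned to genes ran from 25586301 to 33119710 a library, and the ribosomal transcript Rn45s took 10.1% to 13.1% of it. Levels are given as RPKM, the authors' read count divided by transcript length and by a scaled library size, which can be compared between genes. The targeted gene, Midn, had an RPKM of 60.5 in wt, 59.6 and 50.8 in the scr pair, and 20.3, 21.8 and 22.1 in knockdown 25-3, 50-2 and 50-5. This was a log2 fold change of -1.38 (SE 0.133, FDR 0.00777). Changes are log2 fold changes of the 3 knockdown libraries over the 2 scr libraries from the edgeR quasi-likelihood test, with the Benjamini-Hochberg FDR over all 11577 genes tested, which were those whose RPKM exceeded 1 in any of these 5 libraries. A gene was called changed at an FDR under 0.05 and a fold change of at least 1.5 in either direction.

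In the scr libraries the mean RPKM was highest for Spp1 (339), followed by Gpc3 (93.5), Cd44 (81.4), Cd24a (49.6), Sox4 (43.5), Sox9 (27.0), Igf2bp1 (17.0) and Igf2bp3 (15.99), while Lin28b (0.286) and Prom1 (0.0168) lay far below 1. In this order Spp1 and Gpc3 overlapped in their scr libraries, as did Gpc3 and Cd44, Cd24a and Sox4, Igf2bp1 and Igf2bp3, and Lin28b and Prom1, so those neighbours did not differ beyond their spread. In the knockdown libraries the order was Spp1 (421), Cd44 (188), Cd24a (132), Sox4 (90.2), Sox9 (37.4), Igf2bp3 (26.02), Igf2bp1 (23.2), Gpc3 (5.29), Prom1 (0.397) and Lin28b (0.0853), where Cd24a overlapped with Sox4 and Igf2bp3 with Igf2bp1. Of the 10 members, 8 passed the filter on RPKM, and Prom1 and Lin28b did not.

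**Figure D1:**
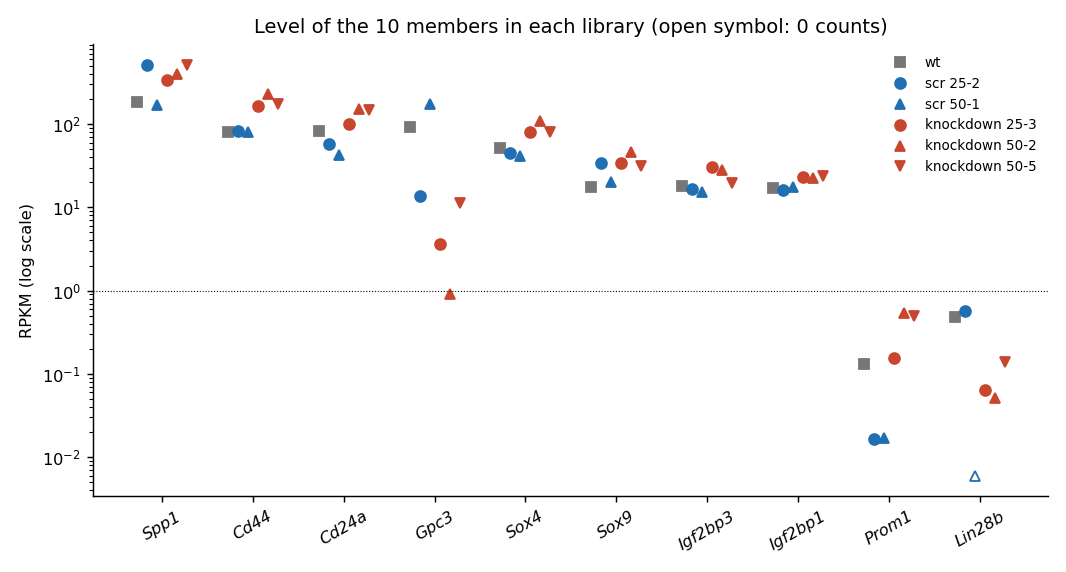
RPKM on a log scale of the 10 members in the 6 libraries, ordered by the higher of the scr and knockdown means, with wt as grey squares, scr in blue and knockdown in red; the dotted line is an RPKM of 1, and the open symbol marks Lin28b in scr 50-1, which had 0 counts and is drawn at the bottom of the axis. Cd44, Cd24a and Sox4 sit higher in all 3 knockdown libraries than in both scr libraries, and Gpc3 lies lower in all 3, with scr libraries of 13.8 and 173.

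The fit called 3 of the 8 tested members, Cd44, Cd24a and Sox4, and each rose in the knockdown libraries. Over all genes tested it called 1230, or 10.6%, with 5.40% higher and 5.23% lower. Calls under an alternative, given below, are read against that fit's own share of all genes tested. This share was 20.1% with DESeq2, 10.4% with limma, 11.5% with the filterByExpr filter, 7.32% with no filter, 14.1% with wt among the controls and 6.97% with the first label number as a term. It was 19.9% without scr 25-2 (10.0% higher, 9.87% lower), 11.3% without scr 50-1, 2.24% without knockdown 25-3, 1.14% without 50-2 and 3.01% without 50-5. The median log2 fold change of the tested members was 0.57, beside -0.0097 over all genes tested, and an unadjusted p under 0.05 was reached by 6 of the 8, beside 31.5% of all genes tested. All 3 knockdown libraries lay above both scr libraries for 6 of the 10 members (Sox4, Prom1, Cd44, Cd24a, Igf2bp1 and Igf2bp3) and below both for 1 (Gpc3), whereas Spp1, Sox9 and Lin28b overlapped. Among all genes tested 50.2% did not overlap in this way, 25.7% above both and 24.5% below both, so that the members' count is read against these shares. The shares cover tested genes only, whereas the members' count includes Prom1 and Lin28b, which were not tested.

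The surface glycoproteins held the members with the largest calls. Cd44 (chr2:102811142-102901665, minus strand, mm10) encodes the main receptor for hyaluronan, which also binds osteopontin, and its RPKM was 79.9 in wt, 81.5 and 81.4 in the scr pair, and 163, 227 and 173 in the knockdown set. The wt and scr libraries lay close together, and every knockdown library was at least 2.00 times the scr library with the same first number in its label. The log2 fold change of Cd44 was 1.19 (SE 0.184, 95% confidence interval 0.74 to 1.64, FDR 0.0190), a 2.28-fold rise. It was the member called under the most alternatives, 10 of 13, and the 3 exceptions were the fits that left out a knockdown library, with FDR values of 0.0592, 0.0678 and 0.0616 without 25-3, 50-2 and 50-5. The scr libraries differed by a factor of 1.00 for this gene, whereas their median difference over all genes tested, on the log2(RPKM + 0.1) scale, was 1.25-fold.

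Cd24a (chr10:43579169-43584265, plus strand) encodes CD24, a small, heavily glycosylated protein held at the cell surface by a lipid anchor. It had an RPKM of 82.2 in wt, 57.2 and 42.0 in the scr pair, and 100, 150 and 146 in the knockdown set. All knockdown libraries lay above wt and both scr libraries, and wt lay above both scr libraries. Its log2 fold change of 1.40 (SE 0.251, 95% confidence interval 0.78 to 2.02, FDR 0.0280) was the largest rise among the tested members. Within libraries of the same first number, the ratio to scr was 1.75 for 25-3, 3.58 for 50-2 and 3.48 for 50-5.

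Prom1 (chr5:43993622-44101736, minus strand) encodes prominin-1 (CD133), a membrane protein of cell protrusions that is used to sort liver progenitors and tumour-initiating cells. It had 14 counts in wt, 2 in each scr library, and 20, 72 and 67 in knockdown 25-3, 50-2 and 50-5. No library reached an RPKM of 1, the highest being 0.543 in knockdown 50-2, and Prom1 was therefore not tested. Relative to the scaled library sizes, the 159 counts of the knockdown libraries against 4 of the scr libraries gave a ratio of 23.5. Its exact 95% interval of 9.01 to 87.4 covers counting error only. With no filter on low values, Prom1 was called (log2 fold change 4.47, FDR 0.0245), as it was with the filter of edgeR's filterByExpr. The wt library, at an RPKM of 0.131, lay above both scr libraries (0.0165 and 0.0171) and close to knockdown 25-3 (0.154).

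Both SOX members are transcription factors that act together in the developing bile ducts. Sox4 (chr13:28948920-28953699, minus strand), which is also expressed in many carcinomas, had an RPKM of 51.01 in wt, 45.6 and 41.5 in the scr pair, and 80.9, 109 and 80.4 in knockdown 25-3, 50-2 and 50-5. The groups did not overlap, and wt lay just above the scr libraries. Sox4 had a log2 fold change of 1.04 (SE 0.184, 95% confidence interval 0.58 to 1.49, FDR 0.0275), a 2.05-fold rise. The ratios within the same first number were 1.78, 2.63 and 1.94.

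Sox9 (chr11:112782210-112787757, plus strand), the factor that marks biliary cells and the ductal plate, had an RPKM of 17.6 in wt, 33.7 and 20.2 in the scr pair, and 34.3, 46.6 and 31.2 in knockdown 25-3, 50-2 and 50-5. Knockdown 50-5 lay below scr 25-2, so the groups overlapped. The log2 fold change of 0.46 (SE 0.284, 95% confidence interval -0.24 to 1.16, FDR 0.323) did not pass the test. The difference between Sox4 and Sox9 in their change was not tested. Of 18 other SOX genes, 4 were tested. Sox13 rose (log2 fold change 2.24, FDR 0.0286) from an RPKM of 0.346 and 0.368 in scr to between 1.20 and 2.44 in the knockdown libraries, and passed the filter through the knockdown libraries alone. It was called in 8 of 13 alternatives. Sox5, at 2.89 and 2.53 in scr and 0.308 to 0.627 in the knockdown libraries, fell by 2.45 on the log2 scale (FDR 0.0154) and passed the filter through the scr libraries alone. It was called in 11 of 13 alternatives. Sox17, the SOX factor of early endoderm, was at 0 in all 6 libraries.

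The sequence just before the annotated start of a gene is shown for Cd44 and Sox4, a pair of called members that moved together, and for Gpc3, whose level lay in the other direction. RefSeq promoter entries of GRCm38.p6, the same assembly as mm10, were found for 7 of the 10 members. The windows hold 250 bases upstream of the start on the gene's strand, and capitals mark matches on either strand to the letters of the TATA box (TATAAA), the CCAAT box (CCAAT), the GC box (GGGCGG) and the AP-1 site (TGANTCA).
Cd44, chr2:102901666-102901915, minus strand: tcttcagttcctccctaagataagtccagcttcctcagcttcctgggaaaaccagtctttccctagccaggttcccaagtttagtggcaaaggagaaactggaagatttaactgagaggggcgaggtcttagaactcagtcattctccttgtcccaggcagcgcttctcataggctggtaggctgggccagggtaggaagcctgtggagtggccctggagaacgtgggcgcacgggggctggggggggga
Sox4, chr13:28953700-28953949, minus strand: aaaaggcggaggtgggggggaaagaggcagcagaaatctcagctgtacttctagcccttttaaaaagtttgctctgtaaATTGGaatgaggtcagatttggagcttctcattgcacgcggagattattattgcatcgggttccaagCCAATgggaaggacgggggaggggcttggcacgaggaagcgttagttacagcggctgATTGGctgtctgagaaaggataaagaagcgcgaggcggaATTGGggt
Gpc3, chrX:52613975-52614224, minus strand: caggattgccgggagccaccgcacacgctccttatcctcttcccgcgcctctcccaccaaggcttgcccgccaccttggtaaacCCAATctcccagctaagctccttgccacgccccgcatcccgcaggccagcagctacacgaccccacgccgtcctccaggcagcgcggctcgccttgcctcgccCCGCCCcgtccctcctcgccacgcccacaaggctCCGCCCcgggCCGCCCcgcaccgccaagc

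The Cd44 window held none of these letters, the Sox4 window held 4 matches to the CCAAT box, and the Gpc3 window held 1 match to the CCAAT box and 3 to the GC box. Of 32851 RefSeq windows of this length, 33.8% held the CCAAT box, 32.7% the GC box, 12.4% the TATA box and 6.75% the AP-1 site. The upstream windows of Cd44 and Sox4 shared no motif of these. Cd24a, also called, had no promoter entry and could not be compared. The share of G and C bases was 56.4% for Cd44, 50.8% for Sox4 and 71.6% for Gpc3, beside a median of 52.4% over all windows. The Gpc3 window held 25 CpG dinucleotides, against 11 for Sox4, 5 for Cd44 and a median of 6. The matches describe letters and not binding.

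**Figure D2:**
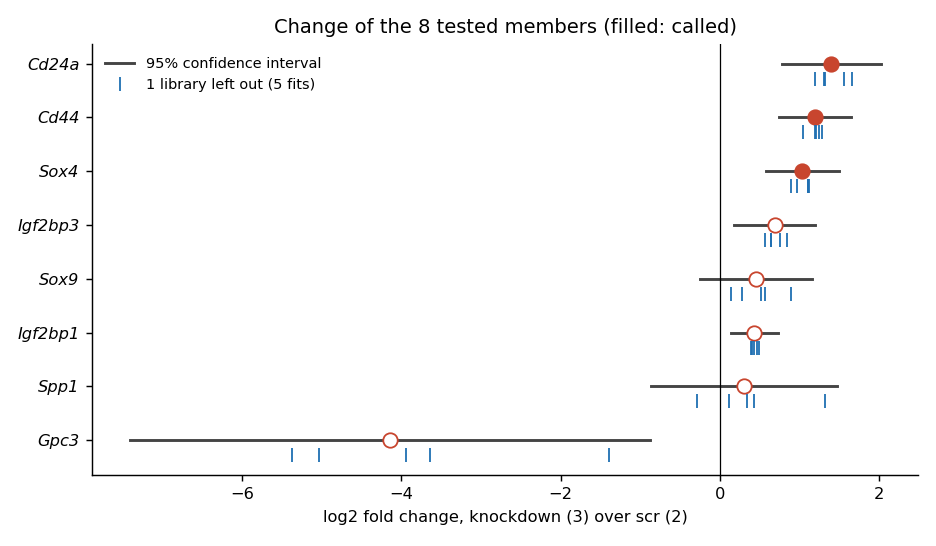
Log2 fold change of knockdown (3 libraries) over scr (2 libraries) for the 8 tested members, with filled circles for called genes, grey lines for 95% confidence intervals and blue ticks for the values with 1 library left out. Cd24a, Cd44 and Sox4 stay between 0.89 and 1.66 in every such fit, whereas the Spp1 values fall on both sides of 0 and those of Gpc3 run from -5.37 to -1.40.

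Gpc3 (chrX:52272427-52613974, minus strand) encodes glypican-3, a heparan sulfate proteoglycan of the cell surface in fetal liver and hepatocellular carcinoma. Its RPKM was 91.9 in wt, 13.8 and 173 in the scr pair, and 3.64, 0.914 and 11.3 in knockdown 25-3, 50-2 and 50-5. The counts behind them were 5433 for wt, 923 and 11194 for the scr pair, and 261, 67 and 849 for the knockdown set. Each knockdown library was lower than each scr library and than wt, but scr 25-2 and knockdown 50-5 were close, and the scr libraries differed 12.5-fold from each other. On the log2(RPKM + 0.1) scale, 1.04% of all genes tested had scr libraries at least as far apart.

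The knockdown mean of Gpc3 was 5.66% of the scr mean. The log2 fold change was -4.14, but its SE was 1.32 and its 95% confidence interval ran from -7.41 to -0.88, and at an FDR of 0.0983 Gpc3 was not called. Library scr 50-1 carried much of this difference. Without it the log2 fold change was -1.40, and without scr 25-2 it was -5.03 with an FDR of 0.0302. DESeq2 called Gpc3 as lower (FDR 0.0303). Against the scr library of the same first number, the ratio was 0.264 for 25-3, 0.00528 for 50-2 and 0.0653 for 50-5.

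Some genes around Gpc3 were also highest in scr 50-1, which was seen after the values were known. Within 1 Mb of the gene, 6 other genes were tested apart from Mir717, which lies inside Gpc3, and all 6 had a higher RPKM in scr 50-1 than in scr 25-2, as did 51.4% of all genes tested. For the neighbouring glypican Gpc4 the RPKM was 98.3 in scr 50-1, beside 29.7 in scr 25-2, 30.9 in wt and 28.1 to 39.7 in the knockdown libraries. Hprt, the purine salvage enzyme often used as a reference gene, had 146 in scr 50-1, 71.0 in scr 25-2, 86.0 in wt and 70.8 to 80.4 in the knockdown libraries. Mospd1 had nearly the same RPKM in the scr libraries, 2.58 and 2.77, and 3.97 to 5.38 in the knockdown libraries. None of the 6 was called with all 5 libraries by edgeR or limma. Without scr 25-2, edgeR called Gpc4, Hprt and Phf6, and Mospd1 was called by DESeq2 and with wt among the controls.

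Among 19 other glypicans and enzymes that build or trim heparan sulfate, 13 were tested and 1 was called. Glce, which epimerizes the uronic acids of the chain, rose by 0.67 on the log2 scale (FDR 0.0369), from an RPKM of 3.38 and 3.28 in scr to between 4.79 and 5.71 in the knockdown libraries. This call was lost without scr 50-1, without any one knockdown library, with the first label number as a term and with limma. Gpc4 had a log2 fold change of -0.95 (FDR 0.232) with all 5 libraries and Gpc1, also a glypican found in tumours, one of -0.041 (FDR 0.985). Gpc2, Gpc5 and Gpc6 were at 0 in all 6 libraries. The list's median was -0.098.

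Other oncofetal genes of the liver gave no call. Of 16 listed, 7 were tested, an unadjusted p under 0.05 was reached by 2, and 0 were called with all 5 libraries by edgeR or by limma. Tspan8 was called as lower by DESeq2, and by edgeR without scr 50-1 or with wt among the controls, and Afp was called as lower by edgeR without knockdown 25-3. Afp encodes alpha-fetoprotein, the fetal counterpart of albumin and the classic serum marker of this cancer. Its RPKM was 1430 in wt, 302 and 533 in the scr pair, and 212, 50.9 and 33.2 in knockdown 25-3, 50-2 and 50-5. All knockdown libraries lay below both scr libraries, and wt lay above all others. Afp had a log2 fold change of -2.10 (SE 0.801, FDR 0.143). Tspan8, a tetraspanin of tumour cell membranes, had a log2 fold change of -1.17 (FDR 0.0750). The imprinted fetal growth gene Dlk1 was at 0 in every library, and H19 did not exceed 0.0891.

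Spp1 (chr5:104435111-104441053, plus strand) encodes osteopontin, a secreted phosphoprotein of reactive bile ducts that binds integrins and CD44, and it had the highest mean level of the members in both groups. Its RPKM was 183 in wt, 508 and 169 in the scr pair, and 341, 403 and 519 in the knockdown set. The scr libraries lay on either side of knockdown 25-3 and 50-2, and differed 3.01-fold from each other. The change in log2 was 0.30 (SE 0.471, 95% confidence interval -0.86 to 1.47, FDR 0.705). Its direction depended on the control: it was -0.28 without scr 50-1 (FDR 0.495) and 1.32 without scr 25-2 (FDR 0.0331). Within the same first number, which is not explained, knockdown 25-3 had 0.672 times the level of scr 25-2, and 50-2 and 50-5 had 2.39 and 3.07 times that of scr 50-1.

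**Figure D3:**
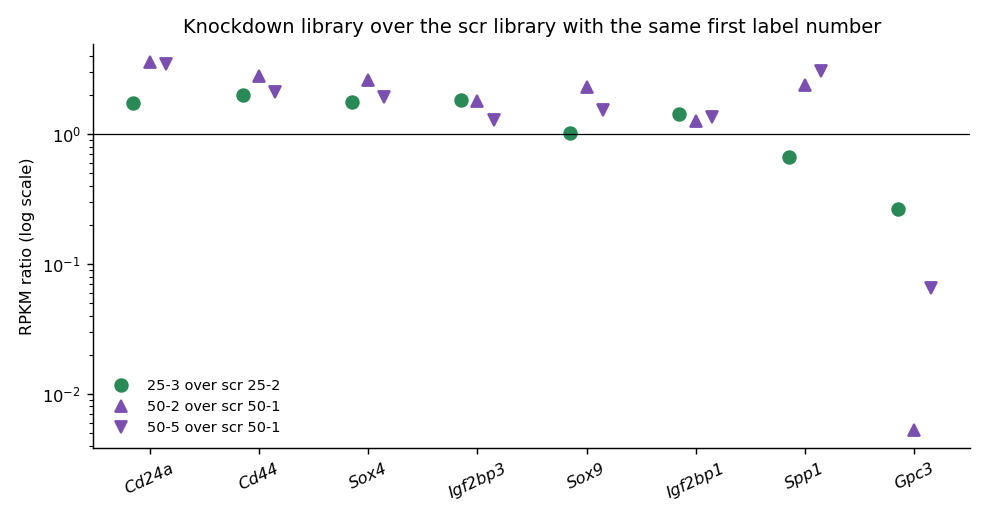
RPKM ratio, on a log scale, of each knockdown library over the scr library whose label begins with the same number, for the 8 tested members; the line is a ratio of 1. All 3 ratios lie above 1 for 6 members and below 1 for Gpc3, and Spp1 has 1 ratio below and 2 above. For each gene 2 of the 3 ratios share the same scr library, so the ratios are not independent. The matching share over all genes tested is not given, so these counts are a description without a background.

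The few calls among the partners of osteopontin and CD44 went in both directions. Of 26 listed integrin subunits, hyaluronan enzymes, linker proteins and proteases, 17 were tested, 2 rose and 1 fell, with a median of 0.019. Over all genes tested 10.6% were called. Itgav, the alpha chain of the osteopontin-binding integrins, had an RPKM of 38.9 and 36.9 in scr and 83.1, 93.7 and 92.4 in knockdown 25-3, 50-2 and 50-5, a log2 fold change of 1.23 (SE 0.132, FDR 0.00893). Itgb3, which pairs with it, rose from 0.0176 and 0.231 in scr to between 3.31 and 5.00 (log2 fold change 5.02, SE 0.908, FDR 0.0284), and passed the filter through the knockdown libraries alone. Itgb5, another partner of the alpha chain, fell by 1.18 on the log2 scale (FDR 0.0460), from 23.5 and 43.8 to between 14.1 and 15.8. Itgav was called in 12 of 13 alternatives, Itgb3 in 10 and Itgb5 in 8, and the Itgb3 and Itgb5 calls were lost without any one knockdown library. That of Itgb5 was also lost with the first label number as a term and with limma. The genes for ezrin, radixin and moesin, which tie CD44 to actin, had log2 fold changes of -0.25, -0.21 and -0.23, and none was called with all 5 libraries. Without scr 25-2 the moesin gene Msn was called, and Adam10 with it, as lower. DESeq2, and edgeR with wt among the controls, also called the integrin genes Itgb6 and Itga5 as higher. The hyaluronan synthases Has1, Has2 and Has3 did not exceed an RPKM of 0.0338.

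Other progenitor and biliary markers were called in both directions. Of 24 listed, 14 were tested, 2 rose and 5 fell, with a median of -0.35. The 7 calls became 1 without knockdown 25-3, 2 without 50-2 and 4 without 50-5. Krt7, a keratin of bile duct cells, fell by 3.44 on the log2 scale (SE 0.439, FDR 0.0133), from 21.3 and 13.9 in scr to between 0.858 and 2.15, and wt had 30.6. The tight junction gene Cldn4 fell by 2.30 (FDR 0.00938), from 118 and 127 to between 17.3 and 31.4. The mucin gene Muc1 fell by 3.63 (FDR 0.0113) from a low level, 0.742 and 1.33, to between 0.0690 and 0.0943, and passed the filter through scr 50-1 alone. The wt library, at 0.103, lay below both scr libraries and near the knockdown libraries. The Muc1 call was lost with wt among the controls, with limma and without knockdown 25-3 or 50-2, and Muc1 was not tested without scr 50-1. Fgfr2, a receptor for fibroblast growth factors, rose by 3.19 (SE 0.720, FDR 0.0476), from 0.915 and 0.716 to 7.96, 2.44 and 12.1 in knockdown 25-3, 50-2 and 50-5, and wt had 7.27. Fgfr2 passed the filter through the knockdown libraries alone. Of 13 alternatives, Krt7 and Cldn4 were each called in 12, Muc1 in 8 and Fgfr2 in 6, and the Fgfr2 call was lost without either scr library, without knockdown 25-3 or 50-5, with wt among the controls, with the first label number as a term and with limma. The remaining calls were Tnfrsf12a, the receptor of the progenitor mitogen TWEAK, which rose, and the R-spondin receptors Lgr4 and Lgr5, which fell. The Tnfrsf12a and Lgr5 calls were lost without any one knockdown library, and that of Lgr4 without 25-3 or 50-2. Krt19, the defining keratin of bile ducts, had at most 8 counts in any library.

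NOTCH and Hippo-YAP signalling act on Sox9 and Spp1 in the liver, and of 28 symbols listed for these pathways, 26 were in the table, the others being older names of Ccn1 and Ccn2. Of the 19 tested, 0 were called with all 5 libraries by edgeR or by limma, and 3 had an unadjusted p under 0.05. Without knockdown 50-2, only 18 passed the filter on RPKM. Dll1, Tead2 and Ajuba were called as higher by DESeq2, and by edgeR without scr 50-1 or with wt among the controls. Without scr 25-2, edgeR called 8 as higher, among them Ankrd1 and Ccn2, in a fit that called 10.0% of all genes as higher. The median was 0.32. The listed genes Ankrd1 and Ccn2 were higher in scr 25-2 than in scr 50-1, as was Spp1, which was seen after the values were known. Of all genes tested, 51.4% lay the other way, and a link to Spp1 was not tested. Ankrd1, a target of YAP, was at 186 and 44.6 RPKM in the scr pair, beside 246, 254 and 362 in the knockdown libraries (log2 fold change 1.30, SE 0.601, FDR 0.202). Ccn2 had 208 and 55.7 in the scr pair, and 230, 382 and 173 in the knockdown libraries (FDR 0.335).

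The fetal RNA-binding proteins formed the last set of members. Igf2bp1 (chr11:95957164-96005944, minus strand) binds and stabilizes messenger RNAs such as that of Myc, and its RPKM was 17.0 in wt, 16.3 and 17.7 in the scr pair, and 23.2, 22.4 and 24.0 in knockdown 25-3, 50-2 and 50-5. The libraries of each group lay close together and the groups did not overlap. For Igf2bp1 this was a log2 fold change of 0.43 (SE 0.120, 95% confidence interval 0.14 to 0.73, FDR 0.0723), a 1.35-fold difference that was under the required 1.5-fold and was called in 0 of 13 alternatives.

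Igf2bp3 (chr6:49085218-49214954, minus strand), the family member most used as a tumour marker, had an RPKM of 18.2 in wt, 16.5 and 15.4 in the scr pair, and 30.2, 28.04 and 19.8 in knockdown 25-3, 50-2 and 50-5. Knockdown 50-5 was the nearest to the controls, and all 3 lay above wt and scr. Its log2 fold change of 0.69 (SE 0.205, 95% confidence interval 0.18 to 1.20) missed the threshold (FDR 0.0849), and DESeq2 called it (FDR 0.0179). The related gene Igf2bp2, which is no member, was called: its RPKM was 4.91 in wt, 3.46 and 2.25 in the scr pair, and 9.45, 10.8 and 11.4 in the knockdown set (log2 fold change 1.87, SE 0.240, FDR 0.0133). That call, too, was lost without any one knockdown library. It was the only call among 14 tested of 15 IGF2BP family genes, partner proteins and known target RNAs. The target Myc had a log2 fold change of 0.27 (FDR 0.371), and the median of this list was 0.13.

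Lin28b (chr10:45376619-45470201, minus strand) was low in every library and undetected in 1. It had 68 counts in wt, 91 and 0 in the scr pair, and 11, 9 and 25 in the knockdown set, which gave RPKM values of 0.483, 0.572, 0, 0.0645, 0.0516 and 0.140. The 0 in scr 50-1 allows an RPKM of up to 0.0195, the level of 3 counts. The scr libraries lay on either side of all 3 knockdown libraries, so no direction could be given. Without a filter on low values the log2 fold change was -1.75 (FDR 0.494). Its paralogue Lin28a was at 0 in all 6 libraries.

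The let-7 family, which LIN28B restrains, shares 1 seed. Of the listed family, 9 distinct mature microRNAs in RefSeq (GRCm38.p6) carry GAGGUAG at bases 2 to 8, and 3 of them are shown with the seed in capitals. Let-7c is shown for its called locus, let-7a as the type member and miR-98 as the member named outside the family.
mmu-let-7a-5p, chr13:48538239-48538260, minus strand: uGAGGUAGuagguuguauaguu
mmu-let-7c-5p, chr16:77599672-77599693, plus strand: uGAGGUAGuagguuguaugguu
mmu-miR-98-5p, chrX:151913229-151913250, plus strand: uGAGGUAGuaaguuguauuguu

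The complement of this seed, CTACCTC, was searched in the longest annotated 3′ untranslated region of each gene (GENCODE vM21, GRCm38), and 9.02% of 21020 genes held it at least once. Lin28b held 4 copies, Igf2bp1 held 4, and Igf2bp3 and Igf2bp2 held 1 each, whereas the other 7 members held 0. Per kilobase these were 0.900 copies for Lin28b, 0.631 for Igf2bp1, 0.472 for Igf2bp3 and 0.561 for Igf2bp2, beside 0.0700 over all genes. The 3 of the 10 members with the letters were the RNA-binding proteins. The first copy in each gene is shown with its flanks, with the seed complement in capitals.
Lin28b, chr10:45381022-45381043, minus strand: cccgggcgggaagtCTACCTCa
Igf2bp1, chr11:95961778-95961799, minus strand: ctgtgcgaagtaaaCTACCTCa
Igf2bp2, chr16:22059473-22059494, minus strand: cacacaaataaaagCTACCTCa
Igf2bp3, chr6:49086787-49086808, minus strand: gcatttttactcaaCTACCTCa

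In these 4 first copies an A follows the seed complement, the base found opposite the first position of the microRNA in the best known class of target site. It also follows the next 2 Igf2bp1 copies, whereas T or C follows the other 3 copies in Lin28b and T the last in Igf2bp1. A match is a description of the letters and not of repression. Mature let-7 was not measured, since the libraries were not made for small RNAs, and reads on the let-7 loci were few. Of 14 listed loci and host genes, 9 were tested, and 1 was called. Mirlet7c-1 had 2 counts in wt, 13 and 12 in scr, and 1, 3 and 2 in knockdown 25-3, 50-2 and 50-5 (log2 fold change -2.74, SE 0.565, FDR 0.0384). It passed the filter through the scr libraries alone and was called in 4 of 13 alternatives, none of which left out a library. Mirlet7d, the locus with the most counts, had 51 and 46 in scr and 22, 27 and 40 in the knockdown libraries (log2 fold change -0.88, FDR 0.177). The median of the tested loci was -1.18.

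Of 24 symbols listed for the LIN28 and let-7 axis, 21 were in the table and 18 were tested. With all 5 libraries and the filter on RPKM, edgeR called Igf2bp2 alone, and the median was 0.23. With the filterByExpr filter or no filter it also called Igf1r as higher. Igf1r had 1 and 0 counts in the scr pair and 17, 14 and 20 in the knockdown set. Without scr 25-2 it also called Hmga2 and Arid3a as higher. The let-7 target Hmga2, with 4 copies of the seed complement, had an RPKM of 1.11 and 0.0552 in scr and 0.755 to 1.01 in the knockdown libraries (log2 fold change 0.58, FDR 0.738). The processing enzymes Drosha and Dicer1 had log2 fold changes of 0.20 and -0.25. Tarbp2, a partner of Dicer, had 1.59 and 2.04 in scr and 3.22 to 5.03 in the knockdown libraries (log2 fold change 1.10, FDR 0.0802), and it was called by DESeq2 and with wt among the controls.

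**Figure D4:**
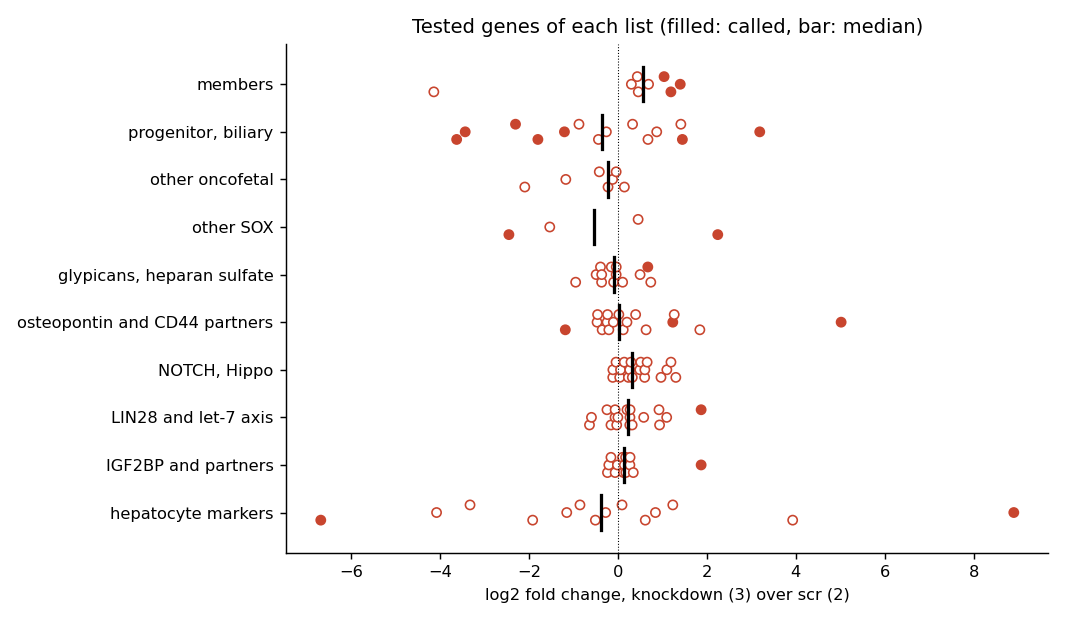
Log2 fold change of knockdown (3 libraries) over scr (2 libraries) for the tested genes of the members and of 9 related lists, with filled circles for called genes and black bars for list medians. The members have 3 calls, all higher, around a median of 0.57, and the progenitor and biliary list has 2 higher and 5 lower around -0.35; the rightmost point is Serpina1b, which had 0 counts in both scr libraries, so that its position depends on the fit and is no measured fold change.

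The hepatocyte markers, summed, lay lower in the knockdown libraries. Their total RPKM over 18 genes was 4090 in wt, 2826 and 3689 in the scr pair, and 881, 512 and 240 in the knockdown set. Of the 14 tested, 1 rose and 1 fell, while DESeq2 called 2 as higher and 4 as lower. Without knockdown 50-2 edgeR called 0 (1.14% of all genes), with an unadjusted p under 0.05 for 6, beside 21.5% of all genes. Without scr 25-2 it called 3 as higher and 3 as lower, in a fit that called 19.9% of all genes. Ttr, which encodes the plasma carrier transthyretin, fell by 6.68 on the log2 scale (FDR 0.0121), from 119 and 131 to 2.59, 0.887 and 0.223. Serpina1b, an antitrypsin gene with near-identical copies, had 0 counts in both scr libraries and 105, 61 and 20 in the knockdown libraries. It passed the filter through the knockdown libraries alone and was called in 8 of 13 alternatives, and that call was lost without scr 50-1, knockdown 25-3 or knockdown 50-2, with wt among the controls and with the first label number as a term. Alb, which encodes albumin, had 1877 and 2804 in scr and 336, 62.7 and 20.9 in the knockdown libraries (FDR 0.0712), and was called in 4 of 13 alternatives. Alb made up most of the scr sums. Apob, the protein of lipoprotein particles, lay the other way, at 3.00 and 1.07 in scr and 52.2, 37.8 and 4.37 in the knockdown libraries (log2 fold change 3.93, FDR 0.0822), and was called as higher by DESeq2 and without knockdown 50-5. Hnf4a, the main hepatocyte transcription factor, had 33.9 and 11.04 in scr and 65.5, 65.4 and 29.6 in the knockdown libraries (FDR 0.206).

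Markers of other liver cells were mostly near 0. Of 10 stellate markers Dcn was the one tested, at 409 to 594 across the scr and knockdown libraries, while Acta2, Pdgfrb and Col1a1 did not exceed 0.208. The 9 leukocyte markers summed to 0.205 to 1.43 in scr and 2.90 to 4.95 in the knockdown libraries, of which Csf1r made up 2.26 to 4.27 in the latter (FDR 0.192), and the defining marker Ptprc did not exceed 0.160. The log2 fold change of Csf1r depended on the control, at 2.29 with both scr libraries, 5.33 without scr 25-2 and 1.38 without scr 50-1. The 8 endothelial markers summed to 0.207 to 0.248 in scr and 0.383 to 0.537 in the knockdown libraries. The part of the hepatocyte and Csf1r differences in the members' values was not tested. In bulk RNA, fewer cells with a transcript and less transcript per cell cannot be told apart.

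The calls of Cd44, Cd24a and Sox4 rested on having all 3 knockdown libraries. Leaving out any one of them ended all 3 calls, with FDR values of 0.0502 to 0.107, although the log2 fold changes stayed between 0.89 and 1.56. With knockdown 25-3 and 50-2 alone, the fit called 346 of 11482 genes (3.01%) and 0 of the 8 tested members, with an unadjusted p under 0.05 for 6 of them, beside 24.8% of all genes in that fit. Without knockdown 25-3 it was 4 members, beside 23.3% of all genes, and without 50-2 it was 5, beside 21.5%. Without scr 50-1, or with the first number of the labels as a term, Cd44 was the only member called.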

How the data were processed

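RNA-seq of Hepa1-6 cells after ribosomal RNA depletion was analysed in 6 libraries. Per the labels, the authors mapped single reads with TopHat2 to mm10, assigned them to RefSeq genes with HTSeq 0.6.1p1, and deposited the counts unnormalized. The authors also deposited RPKM values with TMM-scaled library sizes. The strand setting and the treatment of reads with several matches are not given in the sources used here, so overlapping genes (Mir717 and Mir6384 in Gpc3, Mir3063 in Igf2bp1) and near-identical copies have uncertain counts.

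The 3 knockdown and 2 scr libraries were compared on counts by edgeR's quasi-likelihood test (edgeR 4.0.16, R 4.3.3) after TMM normalization. The study's methods name a pair of knockdown clones that the labels do not tie to libraries, and all 3 labelled libraries were used. The filter (RPKM over 1 in at least 1 library) and thresholds (FDR under 0.05, 1.5-fold) follow the methods. The SE is the size of the log2 fold change over the root of F. The common biological coefficient of variation was 0.272. Alternatives were DESeq2 1.42.0, limma 3.58.1 on log2(RPKM + 0.1), other size factors and filters, wt among the controls, the first label number as a term, and each library left out. The test was checked on simulated counts.

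The text names all 10 members and, from each list, at most 4 called genes with the largest changes and those that carry its role. The members and lists were chosen with earlier results of these data known. No library column was left unmatched. Sequences were read from RefSeq (GRCm38.p6) and GENCODE tables. Python 3.11.15 and matplotlib 3.10.9 drew the figures.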

Additional observations from a re-analysis of the deposited data

How the results depend on the processing

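The count of 3 calls among the members was the same, and that of 1230 over all genes within 1.5 times, with other size factors (3 and 1216 with DESeq2's RLE factors in edgeR, 3 and 1194 with total counts), with wt among the controls (3 and 1648) and with limma on log2 RPKM (3 and 1201). DESeq2 called 5 members and 2322 genes, with the first label number as a term 1 and 807 were called, and leaving out 1 library gave between 0 and 5 members and between 131 and 2273 genes. The filterByExpr filter (4 and 1480) and no filter (4 and 1367) added Prom1. One log2 fold change changed sign: that of Spp1 was -0.28 without scr 50-1 and 1.32 without scr 25-2. The members' median stayed between 0.54 and 1.01, and the medians of the progenitor and biliary, NOTCH and Hippo, LIN28, IGF2BP, let-7 and hepatocyte lists kept their sign in the 13 alternatives. Those of the glypican, other oncofetal and SOX lists crossed 0 in 1 each, and that of the osteopontin and CD44 partners, near 0, in 4. The groups share no full replicate number, and the first label number, entered as a term above, is not explained in the labels, so it is not read as a pairing. The scr libraries, each possibly a clone, differed 12.5-fold for Gpc3 and 3.01-fold for Spp1, and the member calls needed all 3 knockdown libraries. The low counts of Prom1, Lin28b and the let-7 loci limit what can be said of them.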
